A study of Homo sapiens with 6 samples.

Results

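The 10 immediate early genes EGR1, EGR2, EGR3, FOS, FOSB, FOSL2, JUN, JUNB, JUND and IER2 were chosen by name from the 20263 genes of the expression table, and each name matched 1 row. Poly(A) RNA was profiled in THP-1, an established human monocytic cell line of acute myeloid leukaemia origin. The series asks how inhibition of GOT1, an aspartate aminotransferase, bears on ferroptosis in such cells. In 3 libraries the cells carried a short hairpin RNA against GOT1 (shGOT1, labelled GOT1 knockdown), and in 3 they carried the control hairpin (shNC, labelled wt). The labels name 1 GOT1 hairpin line and no rescue, so other effects of that hairpin or line cannot be told apart from the loss of GOT1. Libraries of 1 group are labelled biological replicates with no word on separate cultures. The p-values therefore reflect only library-to-library spread, which may be technical.

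Immediate early genes are transcribed within minutes of a growth factor, cytokine or stress signal, without new protein synthesis. The RAS-ERK kinase cascade reaches them through serum response factor (SRF) and its ETS-domain partners, which bind the CArG box, and through CREB, which binds the cAMP response element. EGR proteins are zinc finger transcription factors, and FOS and JUN proteins are leucine zipper factors that pair to form AP-1. In monocytic cells EGR1 and EGR2 are known for their part in differentiation towards macrophages, and AP-1 for its part in inflammatory gene expression.

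EGR3 and EGR1 were higher in shGOT1 cells and JUN was lower, each in every library, while FOS, JUNB and EGR2 showed no change past the threshold. EGR3 stood 5.19-fold and EGR1 1.80-fold above the control, and JUN 1.61-fold below it. FOSB also rose, though its call was lost in 5 of the 6 fits that left out a library, and JUND fell by a log2 fold change of -0.30. The immediate early genes therefore did not move as 1 group.

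Promoter sequence is shown for EGR1 and FOSB, which rose, for EGR2 and FOS, which did not pass the test, and for JUN, which fell. These windows differ in their exact matches to the motifs searched. Variant forms of an element, and elements outside the windows, were not searched. RefSeq windows (GRCh38.p14) from 250 bases before to 50 bases after a transcription start were matched by symbol for 9 of the 10 genes, all but EGR3. Capitals mark matches, on either strand, to the CArG box and to TGACGT, the core of the cAMP response element.
EGR1 chr5:138465229-138465528, plus strand: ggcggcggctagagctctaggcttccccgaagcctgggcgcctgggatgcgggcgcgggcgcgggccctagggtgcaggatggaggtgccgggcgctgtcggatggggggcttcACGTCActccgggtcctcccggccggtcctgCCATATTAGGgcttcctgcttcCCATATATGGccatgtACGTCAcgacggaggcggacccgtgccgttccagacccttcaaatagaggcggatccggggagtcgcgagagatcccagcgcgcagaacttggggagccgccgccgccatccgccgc
EGR2 chr10:62816317-62816616, minus strand: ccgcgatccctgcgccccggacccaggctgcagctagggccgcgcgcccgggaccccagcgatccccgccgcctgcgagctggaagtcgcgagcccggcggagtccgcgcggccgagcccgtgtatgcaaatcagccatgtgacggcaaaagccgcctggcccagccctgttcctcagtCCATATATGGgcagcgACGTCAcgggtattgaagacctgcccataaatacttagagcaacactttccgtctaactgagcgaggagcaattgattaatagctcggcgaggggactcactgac
FOS chr14:75278578-75278877, plus strand: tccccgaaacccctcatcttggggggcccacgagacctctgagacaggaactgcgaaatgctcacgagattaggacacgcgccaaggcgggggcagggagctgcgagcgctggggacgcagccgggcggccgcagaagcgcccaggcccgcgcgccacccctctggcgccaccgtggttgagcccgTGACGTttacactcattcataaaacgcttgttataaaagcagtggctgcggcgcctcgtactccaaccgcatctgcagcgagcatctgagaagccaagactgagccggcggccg
FOSB chr19:45467746-45468045, plus strand: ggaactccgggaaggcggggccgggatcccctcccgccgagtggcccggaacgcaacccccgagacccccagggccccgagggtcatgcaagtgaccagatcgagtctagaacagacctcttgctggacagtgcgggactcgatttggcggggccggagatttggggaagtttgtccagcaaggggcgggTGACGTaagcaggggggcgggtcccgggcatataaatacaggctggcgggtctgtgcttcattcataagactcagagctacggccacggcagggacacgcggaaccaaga
JUN chr1:58783998-58784297, minus strand: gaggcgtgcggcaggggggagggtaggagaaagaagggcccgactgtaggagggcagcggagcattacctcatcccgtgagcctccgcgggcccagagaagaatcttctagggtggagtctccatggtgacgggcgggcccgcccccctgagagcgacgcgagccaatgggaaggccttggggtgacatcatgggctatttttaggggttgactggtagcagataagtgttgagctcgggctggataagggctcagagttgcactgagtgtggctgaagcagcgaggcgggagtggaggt

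The EGR1 window held 2 CArG boxes, beginning 105 and 83 bases before the start, and 2 TGACGT matches on the opposite strand. The EGR2 window, the third of 3 listed for that gene, held 1 CArG box and 1 TGACGT match beside it. Its other windows held none. FOS and FOSB each had 1 TGACGT match at nearly the same place, 64 and 60 bases before the start. The JUN window held no match to any of the 6 motifs searched, and nor did those of JUNB and IER2.

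Across all 35116 windows of the same length, 1.29% held a CArG box, 7.98% held TGACGT, 1.85% held the full palindrome TGACGTCA and 7.71% held the AP-1 element TGANTCA. The EGR motifs GCGTGGGCG and GCGGGGGCG were in 0.795% and 5.07%. TGACGT lies within TGACGTCA, so these counts overlap. Among the 9 genes with a window, 2 had a CArG box, 6 had TGACGT, 1 had TGACGTCA (JUND), 1 had TGANTCA (FOSL2), and none had either EGR motif. EGR1, which rose, and EGR2, which did not pass the test, shared the CArG box and the TGACGT match, so these letters did not separate that pair.

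Total counts were 26226977 to 39144890 per library. GOT1 itself had 3.28, 2.87 and 3.33 TPM (a transcript level per gene length, with the same total in each library) in shGOT1 and 15.3, 16.7 and 16.3 TPM in shNC. The fitted log2 fold change, shGOT1 over shNC, was -2.45 with a standard error (SE) of 0.0907 (edgeR adjusted p = 1.26e-05). All 10 myeloid identity markers tested were expressed, SPI1 at 379 TPM or more and CD33 at 99.0 TPM or more in every library. CD3E and MS4A1, which define T and B cells, were listed at 0 in all 6, although CD79A reached 15.0 TPM. Of the 13735 genes that passed the filter on low counts, 44.6% passed an adjusted p of 0.05 in edgeR's quasi-likelihood test, 21.9% higher and 22.8% lower in shGOT1. With limma on log2(TPM + 1) the higher genes made up 66.4% of those called, against 49.0% in the count fit, and the median log2 fold change of all genes was 0.09 in place of 0.00 (0.11 with a pseudocount of 0.1), so small changes are read relative to that shift.

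All 10 genes passed the filter on low counts. Of these, 3 rose (EGR1, EGR3 and FOSB), 2 fell (JUN and JUND) and 5 did not pass. The share past the threshold, 50%, lay near the 44.6% of all genes tested. EGR3 and FOSB both passed and differed at least 2-fold, as did 7.07% of all genes tested. The TPM values of the groups did not overlap for 7 of the 10, against 55.2% of all genes tested. The median log2 fold change of the 10 was -0.03, and that of all genes tested was 0.00.

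**Figure D1:**
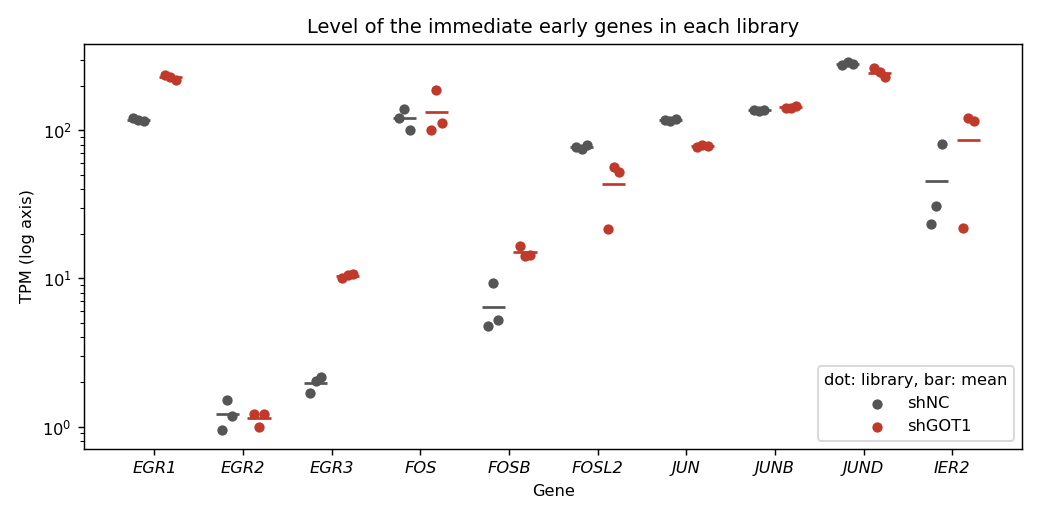
TPM of each immediate early gene on a log axis, with 1 dot per library and a bar at the mean of 3 libraries, shNC in grey and shGOT1 in red. The EGR1 and EGR3 dots of the groups lie apart with little spread, the JUN dots lie apart in the other direction, and IER2, FOS and FOSL2 spread widely within a group.

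In the control cells the genes spanned a wide range of levels per length. As messages of a bulk sample, fewer cells with a transcript and less of it per cell cannot be told apart. JUND was highest at 280.6 ± 6.65 TPM (SD, n = 3), followed by JUNB at 136.3 ± 0.837, FOS at 120.4 ± 19.2, EGR1 at 118.1 ± 2.83 and JUN at 117.2 ± 2.15 TPM. FOS did not differ from JUNB, EGR1 or JUN beyond its spread, and nor did EGR1 from JUN. FOSL2 followed at 77.0 ± 1.96 TPM and IER2 at 45.2 ± 31.6 TPM, whose spread reached the FOSL2 level. FOSB stood at 6.44 ± 2.53, EGR3 at 1.96 ± 0.243 and EGR2 at 1.21 ± 0.285 TPM. In shGOT1 cells EGR1 was at 228.5 ± 8.89 TPM, next to JUND at 245.3 ± 16.8 TPM, while JUN stood at 78.4 ± 1.60 TPM.

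Among the EGR genes, EGR1 (ENSG00000120738, chromosome 5, 138465490 to 138469315, plus strand) had 237.7, 227.7 and 219.9 TPM in shGOT1 and 121.0, 118.1 and 115.3 TPM in shNC. Its counts were 10695, 12067 and 14467 against 5502, 5829 and 5755. The groups were far apart and each was tight. In the fit EGR1 was higher by a log2 fold change of 0.85 (SE 0.0370, edgeR adjusted p = 2.22e-05), and with any 1 library left out it lay between 0.82 and 0.87.

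EGR3 (ENSG00000179388, chromosome 8, 22687659 to 22693302, on the minus strand), a close relative of EGR1 that is itself induced by the same signals, had 10.1, 10.5 and 10.6 TPM in shGOT1. In shNC it had 1.69, 2.03 and 2.16 TPM. Its counts were 621, 729 and 926 against 107, 117 and 136, so every shGOT1 library was above every control. EGR3 differed by 2.38 on the log2 scale (SE 0.0792, edgeR adjusted p = 9.45e-06), which ranked 61 among all genes from the largest rise. With any 1 library left out it lay between 2.34 and 2.45.

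EGR2 (ENSG00000122877, chromosome 10, 62811996 to 62819167, on the minus strand) had 1.21, 0.992 and 1.21 TPM in shGOT1 and 0.941, 1.51 and 1.18 TPM in shNC, from counts of 41 to 76. The groups overlapped. The fit gave EGR2 a log2 fold change of -0.20 with a 95% interval of -0.71 to 0.32 (edgeR adjusted p = 0.492), an interval that lies below the rises of EGR1 and EGR3. The summed TPM of these EGR genes was 231.8 to 249.0 in shGOT1 and 118.7 to 123.6 in shNC. EGR1 made up 94.9% to 95.4% of it in shGOT1 and 97.1% to 97.9% in shNC, and EGR3 4.07% to 4.59% in shGOT1 and 1.37% to 1.82% in shNC.

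**Figure D2:**
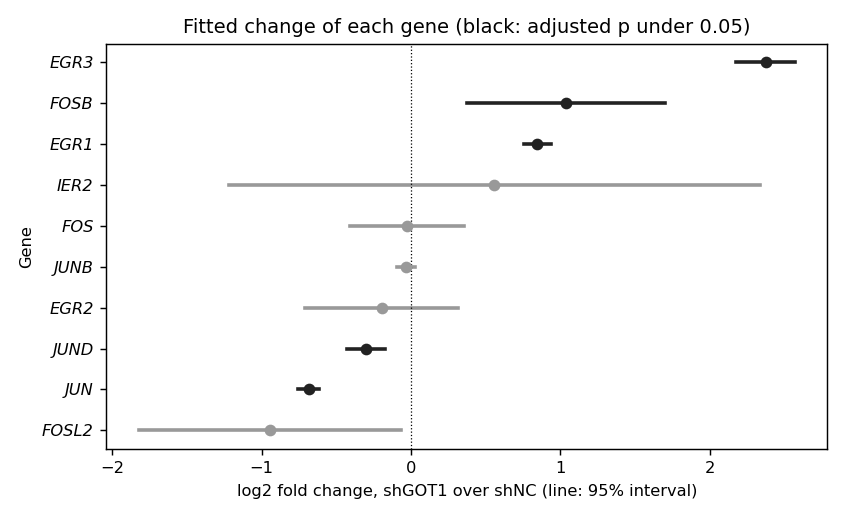
Fitted log2 fold change of each gene, shGOT1 over shNC, with its 95% interval, ordered by size, in black where the edgeR adjusted p was under 0.05 and in grey otherwise. EGR3 at 2.38, FOSB at 1.04 and EGR1 at 0.85 lie above 0, JUND at -0.30 and JUN at -0.68 lie below it, and IER2 and FOSL2 have the widest intervals.

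The JUN genes encode the AP-1 subunits that can pair with each other or with FOS proteins. JUN (ENSG00000177606, chromosome 1, 58780788 to 58784327, on the minus strand) had 76.6, 79.7 and 78.8 TPM in shGOT1 and 117.4, 114.9 and 119.2 TPM in shNC. Every shGOT1 library was below every control. JUN had a log2 fold change of -0.68 (SE 0.0288, edgeR adjusted p = 2e-05), and -0.71 to -0.67 with any 1 library left out.

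JUND (ENSG00000130522, chromosome 19, 18279760 to 18281622, on the minus strand), the JUN gene that is transcribed most steadily in resting cells, had 262.0, 245.6 and 228.3 TPM in shGOT1 and 274.0, 287.3 and 280.4 TPM in shNC. The groups did not overlap, though shGOT1 replicate 1 came close to the lowest control. JUND had a log2 fold change of -0.30 (SE 0.0534, edgeR adjusted p = 0.00530), and of -0.20 with limma on log2(TPM + 1) (SE 0.0540, adjusted p = 0.0302). Genes beside JUND moved the same way. Of the 20 nearest tested genes, 10 on either side, 13 fell and 0 rose by the same edgeR test, with a median log2 fold change of -0.23. Whether the fall of JUND belongs to that stretch was not tested.

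JUNB (ENSG00000171223, chromosome 19, 12791496 to 12793315, plus strand), which can oppose JUN at AP-1 sites, had 141.6, 142.4 and 146.2 TPM in shGOT1 and 136.2, 135.5 and 137.2 TPM in shNC. TPM was slightly higher in every shGOT1 library, while the count fit gave a log2 fold change of -0.03 with a 95% interval of -0.09 to 0.03 (edgeR adjusted p = 0.363). The sign of JUNB thus followed the scaling. The summed TPM of the 3 JUN genes was 453.3 to 480.2 in shGOT1 and 527.6 to 537.7 in shNC. The share of JUN in that sum was 16.0% to 17.4% in shGOT1 and 21.4% to 22.3% in shNC, the share of JUNB was 29.5% to 32.2% against 25.2% to 25.8%, and that of JUND overlapped between the groups.

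**Figure D3:**
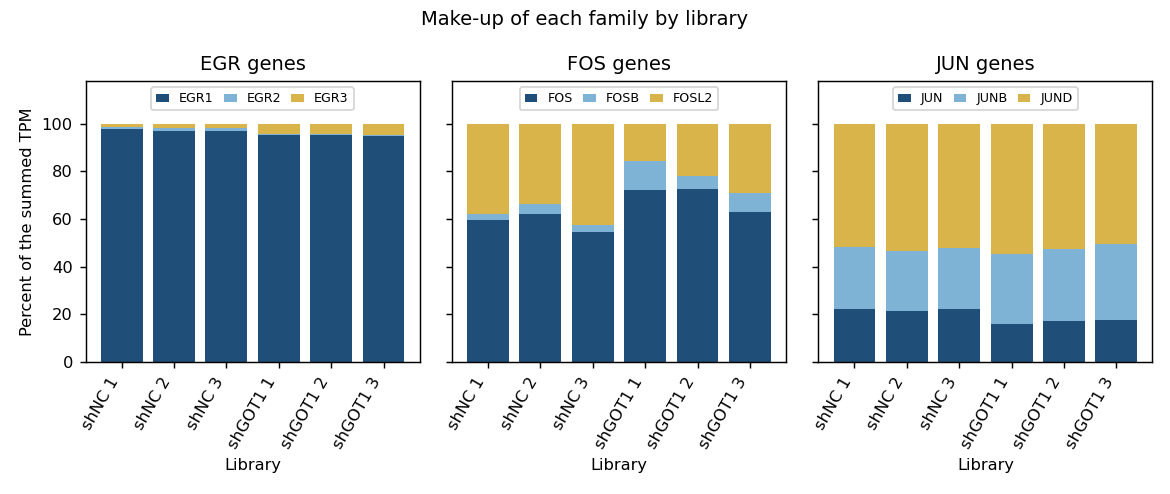
Percent of the summed TPM of the EGR, FOS and JUN genes among the 10 members taken by each gene, with 1 bar per library. EGR4 and FOSL1 are not in these sums. JUN takes 16.0% to 17.4% in shGOT1 and 21.4% to 22.3% in shNC, FOSL2 takes 15.7% to 29.1% against 33.6% to 42.7%, and FOS takes more than any other FOS gene in every library.

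The FOS genes encode the AP-1 partners that need a JUN protein to bind DNA. FOS (ENSG00000170345, chromosome 14, 75278774 to 75282230, plus strand) had 99.8, 187.6 and 112.8 TPM in shGOT1 and 120.7, 139.4 and 100.9 TPM in shNC. The groups overlapped, with shGOT1 replicate 2 above all other libraries. Counts of FOS scaled to library size stood closer together. They were 76.5, 117 and 91.9 CPM (counts per library scaled to a fixed total) in shGOT1 and 94.1, 98.8 and 85.4 in shNC, and the count behind 1 TPM, relative to the median gene of the library, was 0.453 in shGOT1 replicate 2 and 0.501 to 0.599 elsewhere. The fitted difference of FOS was -0.03 on the log2 scale with a 95% interval of -0.41 to 0.36 (edgeR adjusted p = 0.913).

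FOSB (ENSG00000125740, chromosome 19, 45467995 to 45475179, plus strand) had 16.7, 14.1 and 14.3 TPM in shGOT1 and 4.75, 9.34 and 5.23 TPM in shNC. The groups did not overlap, and shNC replicate 2 lay highest among the controls. FOSB rose by 1.04 on the log2 scale (SE 0.272, edgeR adjusted p = 0.0230). The call was lost without shGOT1 replicate 1 (adjusted p = 0.0658), 2 (0.0548) or 3 (0.0532) and without shNC replicate 1 (0.0620) or 3 (0.0649), with log2 fold changes of 0.87 to 1.07 in those edgeR fits. It was kept without shNC replicate 2 (log2 fold change 1.43, edgeR adjusted p = 0.000457). FOSB lies within the interval of ERCC1, a DNA repair gene on the opposite strand, which had counts of 1832 to 3038 against 222 to 904 for FOSB. ERCC1 itself did not pass (log2 fold change 0.04, SE 0.0334, edgeR adjusted p = 0.398). Whether counting used the strand is not given in the sources used here, so the FOSB values are uncertain.

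FOSL2 (ENSG00000075426, chromosome 2, 28392802 to 28417312, plus strand), which encodes FRA-2, had 21.7, 56.8 and 52.2 TPM in shGOT1 and 77.0, 75.1 and 79.0 TPM in shNC. All shGOT1 libraries were below the controls, and shGOT1 replicate 1 was far below the other two. FOSL2 had a log2 fold change of -0.94 with an SE of 0.361 (edgeR adjusted p = 0.0779) and did not pass. Without shGOT1 replicate 1 it was -0.61 with an SE of 0.0529 and passed (edgeR adjusted p = 0.00121).

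IER2 (ENSG00000160888, chromosome 19, 13150415 to 13154908, plus strand), a nuclear protein gene induced with the others, had 21.9, 120.4 and 115.7 TPM in shGOT1 and 23.2, 31.0 and 81.4 TPM in shNC. The groups overlapped, and 1 low shGOT1 library and 1 high shNC library stood apart from the rest of their group. IER2 had a log2 fold change of 0.56 with a 95% interval of -1.22 to 2.34 (edgeR adjusted p = 0.578), so a change of IER2 was not detectable. In CPM the spread was as wide, with 30.2, 139 and 133 in shGOT1 and 31.0, 40.0 and 126 in shNC. Across libraries the count behind 1 TPM varied 1.32-fold for IER2, as for FOS, and 1.08-fold for FOSL2, equal to the median gene with a mean of at least 5 TPM. Whether the assignment of reads to transcripts bears on the spread of IER2 and FOSL2 was not tested. Within a group the highest IER2 library was 5.49 times the lowest in shGOT1 and 3.51 times in shNC, and for FOSL2 it was 2.61 times in shGOT1. Of 6723 tested genes that reached 20 TPM on average in either group, 1.77% spread more than 2.5 times within a group. For EGR1, EGR3, JUN, JUNB and JUND the largest such ratio was 1.28.

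**Figure D4:**
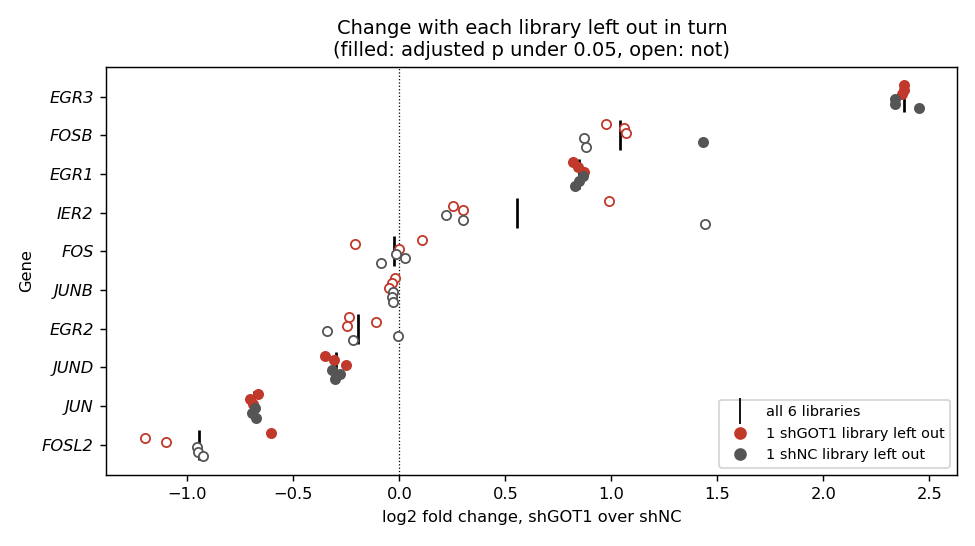
Log2 fold change of each gene with each library left out in turn, red for a shGOT1 and grey for a shNC library, filled where the edgeR adjusted p was under 0.05, with a black tick at the fit of all 6 libraries. EGR3, EGR1, JUND and JUN stay in place and filled, FOSB is filled only without shNC replicate 2, and FOSL2 only without shGOT1 replicate 1.

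Around EGR1, EGR3, FOSB, FOSL2 and JUN the median log2 fold change of the 20 nearest tested genes was -0.02, -0.12, -0.05, 0.11 and 0.11, and between 2 and 5 of them passed in each direction, where 21.9% of all genes rose and 22.8% fell. By the distance between log2 profiles over the 6 libraries, centred per gene, the genes most like EGR3 were UGT3A2, SLC6A6 and MLC1 (distances 0.0673, 0.280 and 0.297), and those most like JUN were SRA1, UAP1L1 and ANO8 (0.0477, 0.0484 and 0.0590).

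Genes around these 10 in the pathway were read from fixed lists by counts and medians. Of 16 relatives and partners, 3 rose, 5 fell and 8 did not pass, with a median log2 fold change of -0.10. The share past the threshold was 50%, near the 44.6% of all genes tested. The rises were EGR4, the fourth EGR gene (1.14 ± 0.353 against 0.346 ± 0.0904 TPM, log2 fold change 1.60), NAB2, the EGR-induced corepressor that binds EGR proteins (41.6 ± 1.77 against 22.7 ± 0.0490 TPM, 0.75), and BATF3 (0.64). EGR4 and NAB2 rose with EGR1 and EGR3 in every library by TPM, but EGR4 rests on few counts. Its counts were 37, 34 and 76 in shGOT1 and 9, 14 and 16 in shNC, so they are limited by depth. NAB2 overlaps STAT6 in the table, so its values are uncertain. Among the falls were MAF (2.72 ± 0.155 against 21.5 ± 2.47 TPM, -2.98), a leucine zipper factor of macrophages, ATF3 (-1.11), BATF (-0.30) and ATF7 (-0.22). The ATF3 call was lost with the replicate number as a block and in the fits without shGOT1 replicate 1 or 3 and without shNC replicate 1 or 3, and that of BATF3 with the block and without shGOT1 replicate 1 or 3. BATF and ATF7 did not pass with limma on log2 TPM, and ATF7 overlaps another gene in the table. NAB2, BATF3, BATF and ATF7 were named after their values were seen, to complete these counts.

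Genes that ERK signalling induces, among them genes that feed back on it, were mostly higher. Of 16 tested, 10 rose, 1 fell (PHLDA1, -0.32) and 5 did not pass, with a median log2 fold change of 0.52, where 21.9% of all genes rose. SPRY4, a Sprouty inhibitor of the cascade, had 3.54, 3.49 and 4.06 TPM in shGOT1 and 0.841, 0.901 and 0.836 TPM in shNC (log2 fold change 2.02, SE 0.0986, edgeR adjusted p = 3.34e-05). SPRED1, a related inhibitor, was at 1.48 ± 0.0523 against 0.480 ± 0.0623 TPM (1.51), and CCND1, the gene of cyclin D1, at 9.67 ± 0.434 against 3.25 ± 0.297 TPM (1.35). CCND1 overlaps ORAOV1 in the table. SPRY1 passed at 1.04 (edgeR adjusted p = 0.0399) and in only 1 of the 6 fits that left out a library, the fit without shNC replicate 3, and not with the replicate block. Named after their values were seen, the ERK phosphatase genes DUSP4 (0.59), DUSP5 (1.02) and DUSP6 (0.74) rose, and in DUSP6 the shGOT1 libraries were spread from 39.5 to 70.6 TPM.

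Of 44 tested other immediate early genes, 17 fell, 10 rose and 17 did not pass, with a median log2 fold change of -0.17. ZFP36L1, which directs decay of AU-rich messages, fell from 34.3 ± 2.86 to 15.9 ± 3.19 TPM (-1.43), and the kinase gene SGK1 fell from 60.6 ± 5.71 to 28.8 ± 3.78 TPM (-1.23). ID1, an inhibitor of helix-loop-helix factors, rose from 5.54 ± 1.33 to 14.2 ± 0.400 TPM (1.23). CYR61, a matricellular protein gene, passed at 1.49, a call kept in 1 of the 6 fits that left out a library, the fit without shNC replicate 1. Named after their values were seen, the cytokine genes TNF and CXCL8 rose, TNF from 135.5, 128.9 and 126.8 TPM in shNC to 298.3, 294.4 and 279.8 TPM in shGOT1 (1.05, SE 0.0407, edgeR adjusted p = 1.44e-05), and CXCL8 from 245.0 ± 6.81 to 449.5 ± 3.47 TPM (0.79). Among other cytokine genes of the list, also named after their values were seen, IL1B rose (0.26), CCL3 fell (-0.39) and CCL4 did not pass (-0.64). In all 61.4% of the list passed, against 44.6% of all genes tested.

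**Figure D5:**
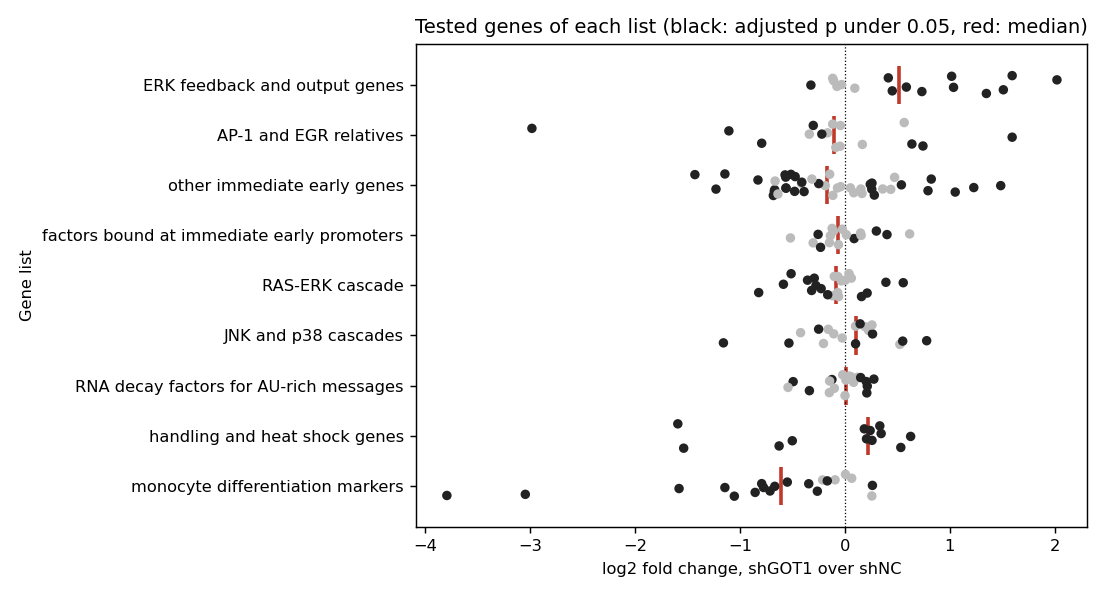
Log2 fold change of every tested gene of 9 fixed lists, black where the edgeR adjusted p was under 0.05, with a red bar at the median of the list. The ERK feedback and output genes have a median of 0.52. The other immediate early genes lie on both sides of 0 with a median of -0.17, and the monocyte genes have a median of -0.61.

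Of 17 tested factors that act at these promoters, 3 rose, 2 fell and 12 did not pass. The share past the threshold was 29.4%, against 44.6% of all genes tested. The rises were MEF2D (0.40), ELK3 (0.30) and SRF (0.09), and the falls CRTC2 (-0.25) and MEF2C (-0.23), the last not past the threshold with limma on log2 TPM. SRF, chosen after its value was seen, had 124.9, 124.2 and 124.9 TPM in shGOT1 and 108.9, 108.2 and 109.9 TPM in shNC. In the RAS-ERK cascade 9 of 22 genes fell, 4 rose and 9 did not pass, so 59.1% passed. NRAS was higher (78.3 ± 2.04 against 49.5 ± 1.37 TPM, 0.56). The kinase genes RPS6KA2 (-0.82), RPS6KA3 (-0.59) and MAPK3 (-0.51), which encodes ERK1, were lower. RPS6KA2 overlaps another gene in the table.

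In the JNK and p38 cascades, whose kinases phosphorylate JUN and its relatives, 5 of 18 genes rose, 10 did not pass and 3 fell. The share past the threshold, 44.4%, lay near the 44.6% of all genes tested. The phosphatase gene DUSP10 fell from 39.3 ± 2.93 to 19.3 ± 2.70 TPM (-1.16), and the p38 kinase genes MAPK11 (0.78) and MAPK13 (0.55) rose. Among 19 factors of AU-rich message decay 5 rose, 3 fell and 11 did not pass, so 42.1% passed, also near that of all genes tested. CNOT8 fell by 0.49 on the log2 scale, and KHSRP and ELAVL1 rose by 0.21 each. The call of EDC3 (0.28) was kept only without shGOT1 replicate 3 among the 6 fits that left out a library and was lost with the replicate block, and CNOT8 and EDC3 overlap other genes in the table.

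Transcripts that respond to handling and to cell state also differed between the groups, and their part in the differences of the 10 genes was not tested. The stress-inducible HSP70 genes HSPA1A (27.0 ± 1.38 against 72.8 ± 1.39 TPM, -1.54) and HSPA1B (54.9 ± 1.92 against 153.9 ± 2.78 TPM, -1.59) fell, though reads of these near-identical genes could be split between them. Of the 12 heat shock genes 8 rose and 4 fell, so all passed, against 44.6% of all genes tested. The falls were HSPA1A, HSPA1B, DNAJB1 and HSF1, of which DNAJB1 and HSF1 overlap other genes in the table. The summed level of the list was 6250 to 6410 TPM in shGOT1 and 4970 to 5050 TPM in shNC. Of 20 tested monocyte differentiation markers 14 fell, 1 rose (FCGR1A, 0.26) and 5 did not pass, so 75% passed. The summed level of that list was 1410 to 1490 TPM in shGOT1 and 2110 to 2160 TPM in shNC. SPI1 and LYZ are also in the myeloid identity list. FCN1 (-3.79), LYZ (-3.05) and CD36 (-1.58) fell most among them, and CD36 overlaps another gene in the table. Markers of other cell types summed to 22.9 to 27.7 against 13.1 to 15.1 TPM for T and B cells, 4.05 to 4.97 against 5.11 to 7.20 for erythroid cells, and 8.06 to 8.36 against 4.97 to 5.26 for fibroblasts and epithelium. Of the lymphocyte markers CD79A and CD79B rose. In the other lists, 3 of 4 tested fibroblast and epithelial markers rose (KRT8, PDGFRB and COL1A1) and KRT18 fell, and none of the 3 tested erythroid markers passed. KRT8 and KRT18 overlap each other in the table.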

How the data were processed

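All values come from 1 series-wide table, with columns mapped to samples through the names in the labels. The tools named in the submitters' processing notes are StringTie, DESeq2, Trimmomatic and FastQC, with versions, aligner, build and strand setting not given in the sources used here. Raw whole-number counts per gene were deposited. Since StringTie works from coverage, they may depart from true read numbers. The deposited TPM values are relative to gene length and a fixed total, and the deposited FPKM values to gene length and depth. Of 20263 genes, 80.4% (8 of the 10 members) have identical coordinates in GENCODE release 29 (GRCh38), and coordinates are printed as in the table.

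All 6 samples entered 1 fit without covariates in edgeR 4.0.16 (R 4.3.3) with filterByExpr, TMM, estimateDisp, glmQLFit and glmQLFTest, 2-sided, with Benjamini-Hochberg adjustment over 13735 genes at 0.05. The SE is the log2 fold change divided by the square root of F. On simulated data the fit recovered 47% of 1.5-fold and 82% of 2-fold changes and called 0.0373% of unchanged genes. There, 100 of 13594 genes were given each size of change, whereas 44.6% of all genes tested passed in the 6 libraries. Recovery with so many changed genes was not tested. A gene that did not pass may still differ. The alternatives, 17 in all, used DESeq2 1.42.0, limma 3.58.1, other filters and scalings, the replicate number as a block, and each library left out. Total counts of 26226977 to 39144890 make 3 counts equal to 0.0766 to 0.114 CPM. Replicate pairs differed by 18.2 to 21.4 chi-square per degree of freedom, so none was counted as a duplicate.

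Members, the 13 lists and the naming rule were chosen with earlier results of these data known. The rule names the 10 members, GOT1, up to 4 called genes per list with the largest change, a mean of 1 TPM or more in either group and TPM apart between groups, and the 3 genes closest to the member with the largest called rise and to that with the largest called fall. Others, such as PHLDA1, DNAJB1 and the marker genes, were named after their values were seen, to complete counts. Some genes of the lists are not reported here by name.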

Additional observations from a re-analysis of the deposited data

How the results depend on the processing

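EGR1, EGR3, JUN and JUND kept direction and call under all 17 alternatives, and IER2 and EGR2 passed under none (EGR2 could not be fitted with a mean of at least 5 TPM). FOSB lost its call in 5 of the fits that left out a library (log2 fold change 0.869 to 1.43), and FOSL2 gained one without shGOT1 replicate 1 (range -1.20 to -0.606). FOS, never called, turned positive with limma on log2 TPM (0.104, 0.105 and 0.102 with pseudocounts of 1, 0.1 and 5) and log2(FPKM + 1) (0.0663), and ranged from -0.208 to 0.109 with a library left out. JUNB, never called, was 0.0724, 0.0729 and 0.0704 with limma on TPM and 0.0344 on FPKM. With median-of-ratios scaling of TPM they were -0.00112 and -0.0331, so these TPM signs followed the scaling. The same 3 TPM fits called 1939, 1931 and 1937 genes lower in place of 3126, and 5 AP-1 and EGR relatives higher in place of 3. With a mean of at least 5 TPM, which leaves fewer genes to test, 6 ERK feedback and output genes rose in place of 10. Without the low-count filter 2 of them fell in place of 1 (1 to 3 with a library left out). Over all tested genes, same-numbered libraries did not deviate together (correlations of 0.03, 0.039 and 0.001). These values show no pairing over the genes as a whole, and pairing at single genes was not tested. The SE of members moved both ways with the replicate block. That of IER2 was 0.425 in place of 0.733, and that of EGR2 was 0.248 in place of 0.211. With the replicate block 5222 genes passed, and 3 members rose and 2 fell as before, while the calls of ATF3, BATF3, SPRY1 and EDC3 were lost. Values from about 50 counts, as for EGR2, or fewer, as for EGR4 in shNC, are limited by depth.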
